A study of Mus musculus with 2 samples.

Results

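The genes described here are those of the proteasome, found by symbols that begin with Psm, a letter from a to g and a digit. A total of 49 genes of the 18193 with a single-gene probe set met that rule, on 103 probe sets. Of these, 46 were above the floor used here, a mean signal of 238 over both arrays, and 45 of the 46 are subunits, regulators or assembly chaperones of the proteasome. The remaining gene above the floor, Psme3ip1, encodes a protein that binds Psme3 and is not a subunit. The 3 genes under the floor were Psma8, which encodes a testis-specific subunit, Psmb11, a thymus-specific subunit, and Psmc3ip, a meiotic recombination factor that is not a subunit.

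The series compared the livers of mice given antagomir-122 with those of mice given a scrambled control named mm-antagomir-122. Antagomirs are synthetic oligonucleotides, stabilised and coupled to cholesterol, that pair with a microRNA, here miR-122 of hepatocytes. The daily dose was 80 mg/kg in both groups for 3 days, and livers were taken 24 h after the last injection. Both groups therefore carried an injected oligonucleotide, and no untreated mice were analysed here. The RNA of 3 livers was pooled for each array, with 1 array per group, and strain, sex and age were not given in the sources used here. No spread between animals could be measured, so no test was run between the conditions. Higher and lower always describe antagomir-122 against the control.

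The proteasome degrades proteins that carry ubiquitin chains. Its 20S core is a barrel of stacked rings, in which outer alpha rings gate the entrance and inner beta rings hold the proteolytic sites. The 19S regulatory particle caps the barrel: its base unfolds substrates with a ring of ATPases, and its lid removes ubiquitin. In cells exposed to interferon, and in many leukocytes, the catalytic subunits Psmb6, Psmb7 and Psmb5 are replaced by Psmb9, Psmb10 and Psmb8, which gives the immunoproteasome, a form linked to peptide presentation on MHC class I.

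The promoter of one immunoproteasome gene is shown because its neighbour across the same region had a different ratio. Promoter sequences are from RefSeq (GRCm38.p6), whose table held windows of 250 bases before to 50 bases after the start for 38 of the 45 genes. Psmb9 and Tap1, a peptide transporter gene of antigen presentation, are transcribed away from each other, and their windows share 275 bases. The 225 bases between their starts, at chr17:34187331-34187555 on the plus strand, run from the Psmb9 start to the Tap1 start, and capitals mark the CCAAT box, the site known for the factor NF-Y.
Psmb9 to Tap1: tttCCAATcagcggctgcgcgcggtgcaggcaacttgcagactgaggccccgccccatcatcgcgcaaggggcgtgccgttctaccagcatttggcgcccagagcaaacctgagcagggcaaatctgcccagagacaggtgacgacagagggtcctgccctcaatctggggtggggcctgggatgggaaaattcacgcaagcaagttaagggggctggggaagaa

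Short windows are also shown for genes with the core letters of the antioxidant response element, TGACNNNGC, the kind of site through which the factor encoded by Nfe2l1 is known to act on proteasome genes. Each is printed on the strand that carries the letters, with the letters in capitals. Of the 6 genes with these letters, the 3 shown are those in which the letters lie at least 10 bases from both the start and the far edge of the window. They lie at chr14:54618024-54618052 on the minus strand for Psmb5, at chr14:45329587-45329615 on the minus strand for Psmc6 and at chr5:123228149-123228177 on the plus strand for Psmd9.
Psmb5: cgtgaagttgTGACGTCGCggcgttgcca
Psmc6: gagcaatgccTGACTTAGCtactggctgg
Psmd9: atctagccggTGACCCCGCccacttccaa

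On both strands, these letters occurred in the 300-base windows of 6 of the 38 proteasome genes (15.8%), against 17.0% of 8165 genes above the floor and 14.0% of 27025 genes of the table. The 6 genes were Psmb5, Psmb6, Psmc6, Psmd12, Psmd9 and Psme4. The CCAAT box, also searched on both strands, lay in the windows of 13 of the 38 (34.2%), against 42.7% of genes above the floor. By class it was found in 5 of the 7 alpha-ring genes with a window and in 1 of the 4 constitutive beta-ring genes. These matches describe letters in a window and do not show a bound site.

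Signals are MAS5 intensities as deposited, in arbitrary units, and the ratio is log2 of the antagomir-122 signal over the control signal on the brightest probe set of a gene. Decimal values in parentheses after a pair of signals are these log2 ratios. Both arrays had been scaled to a 2% trimmed mean of 500.0. The median log2 ratio of the 10003 genes above the floor was 0.0027. Of 18 probe sets for spiked hybridization controls, 17 were lower in the antagomir-122 sample, with a median of -0.27, so scaling on them would add 0.27 to every ratio, and directions below are relative to the bulk of the genes. Among probe sets of the same gene the spread of the log2 ratio was 0.28 (SD of the difference divided by the square root of 2, 3860 genes). The 9 hepatocyte markers above the floor, Alb among them at 26554 and 26970.4 (antagomir-122 first, as in every pair of signals below), had a median of -0.016 and a range from -0.096 to 0.055. Apob, Cebpa and Hnf4a lay furthest from 0, at -0.096, -0.078 and -0.073.

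None of the 45 proteasome genes differed by 1.5-fold between the pools. The count was 0 higher and 0 lower, where 7.74% of the 10003 genes passed 1.5-fold (5.12% higher and 2.62% lower). Among the 6433 genes within the signal range of the proteasome genes, 5.61% passed it (3.67% higher and 1.94% lower). The ratios ran from -0.50 for Psmg4 to 0.14 for Psma6, with a median of -0.091, or 1.07-fold lower. Their SD was 0.15, against 0.31 for the genes within the same signal range, and 28 of the 45 (62.2%) lay within 1.1-fold, against 39.0% of those genes. That range is not matched in brightness, and most of the 45 lay in the brightest 2001 genes. There the SD was 0.13 for proteasome genes and 0.25 for all genes. At a smaller threshold, a log2 ratio of 0.32 in size, 0 were higher and 5 lower (11.1%), where 16.1% and 12.4% of all genes passed. The 5 genes were Psma1, Psmc6, Psmd6, Psmd9 and Psmg4.

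**Figure D1:**
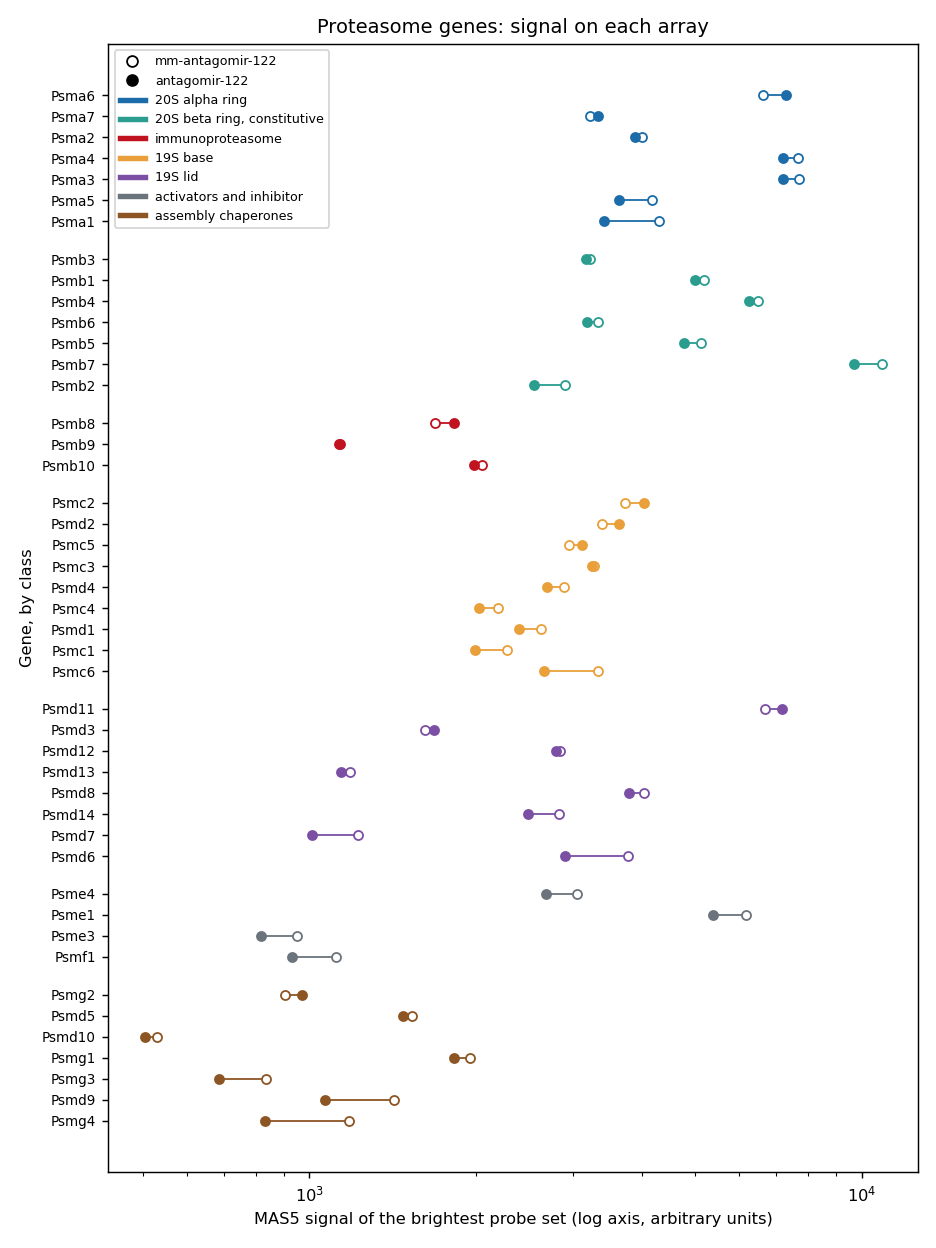
MAS5 signal (horizontal log axis, arbitrary units) of the brightest probe set of each of the 45 proteasome genes, with the control array as an open circle and the antagomir-122 array as a filled circle, coloured by class. The paired circles lie close together, from Psmg4 at 831 and 1179 to Psma6 at 7290 and 6623 (antagomir-122 first).

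A small lean to the lower side was also present in other bright genes. Of the 45 proteasome genes 36 had a ratio below 0 as deposited (80.0%), against 49.6% of all genes and 52.9% of genes in the same signal range. With quantile normalization the count was 28, with a loess correction of the ratio on signal 29, and scaled on the hybridization controls 7. In the brightest 2001 genes, where 28 of the 45 lay, the median ratio was -0.058 and that of the 28 was -0.091. With quantile normalization the median of the 45 was -0.043, and with loess correction it was -0.041.

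**Figure D2:**
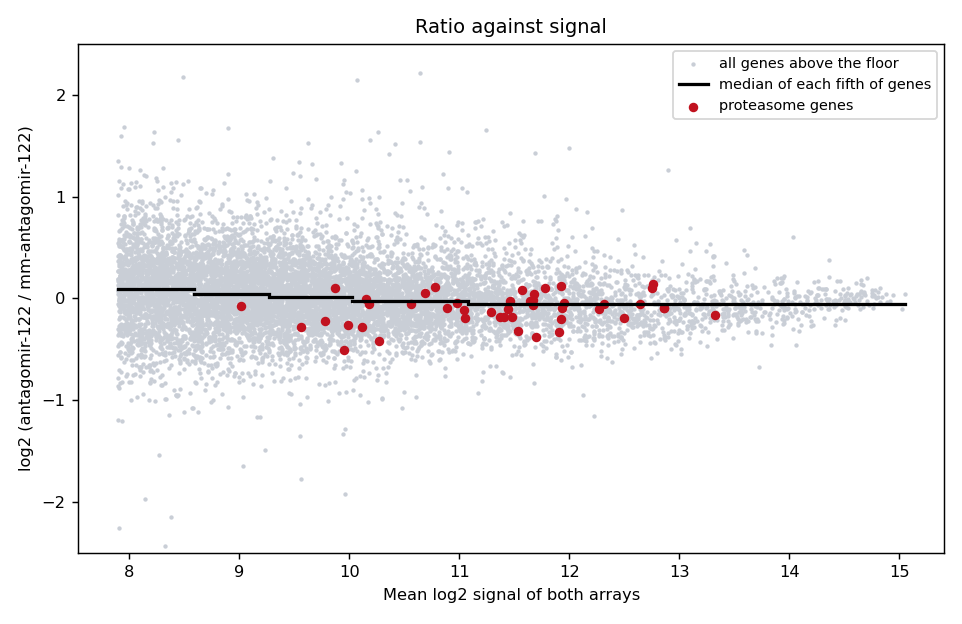
Log2 ratio of antagomir-122 over control (vertical) against the mean log2 signal of both arrays (horizontal) for the genes above the floor in grey, with the 45 proteasome genes in red and the medians of 5 equal bins of genes by signal as black bars. The bars step down from 0.095 in the dimmest bin to -0.058 in the brightest, and 3 genes with ratios beyond 2.5 in size lie outside the plot.

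The alpha ring, whose tails form the gate of the core, had a median ratio of -0.091 over 7 genes as deposited and 0.012 with quantile normalization. Psma1 had the lowest ratio of the ring, at signals of 3418 and 4302.5 (-0.33), and was 1.26-fold lower. Its second probe set above the floor was dimmer and gave -0.069. Psma5 followed at 3636 and 4178 (-0.20), but its second probe set gave 0.22, so the direction differed within the gene. Psma3 had signals of 7192 and 7689, a ratio of -0.096. Psma4 (7198 and 7666) and Psma2 (3894 and 4007) had -0.091 and -0.041. The other two genes of the ring lay above 0, with Psma7 at 3327 and 3226 (0.045) and Psma6 at 7289.9 and 6623 (0.14). Other probe sets of both went below 0, to -0.026 for Psma7 and -0.18 for Psma6, whose dimmest above the floor gave 0.071, so neither gene had a settled direction.

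The constitutive beta ring was the most even of the larger classes on the brightest probe sets. Its 7 genes had ratios between -0.18 and -0.024, with a median of -0.068 and an SD of 0.060. All 7 lay below 0 as deposited, but 4 did with quantile normalization and with loess correction, and scaling on the hybridization controls put the median at 0.21. The catalytic subunits come first. Psmb6, of caspase-like activity, had signals of 3184.5 and 3337 (-0.068). Psmb7, of trypsin-like activity, had 9669.9 and 10864 (-0.17), and Psmb5, of chymotrypsin-like activity and the main target of the drug bortezomib, had 4773.5 and 5123 (-0.10). Among the beta subunits without a proteolytic site, Psmb2 was lowest at 2556 and 2899 (-0.18). Psmb1 had 4993.5 and 5184 (-0.054), Psmb3 had 3168.5 and 3222 (-0.024) and Psmb4 had 6257 and 6496 (-0.054). These lay within 1.1-fold on the brightest probe set. A second probe set of Psmb4, nearly as bright at 5390.4 and 6347.4, gave -0.24, and that of Psmb3 gave -0.018. When the probe sets of each gene were averaged, the class median was -0.12. The dimmer probe sets of Psmb1 gave 0.29 and -0.61, and the latter, at signals of 200 and 304, was one of 2 among 72 probe sets of the 45 genes past 1.5-fold.

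The inducible subunits of the immunoproteasome hardly differed between the pools. Psmb8 had signals of 1827 and 1687.5 and was 1.08-fold higher (0.11). Psmb9 had 1134 and 1136, a ratio of -0.0020, and Psmb10 had 1988 and 2055.5 (-0.048). All 3 lay within 1.1-fold, and each rested on 1 probe set above the floor. Their median was -0.0020, and with loess correction it was 0.0048. Each had a higher ratio than the subunit it replaces. The difference was 0.066 for Psmb9 minus Psmb6, 0.12 for Psmb10 minus Psmb7 and 0.22 for Psmb8 minus Psmb5. All were smaller than the 0.39 that is the SD of a difference between a pair of probe sets of the same gene. With loess correction of the ratio on signal these differences were 0.020, 0.079 and 0.18, in the same order.

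**Figure D3:**
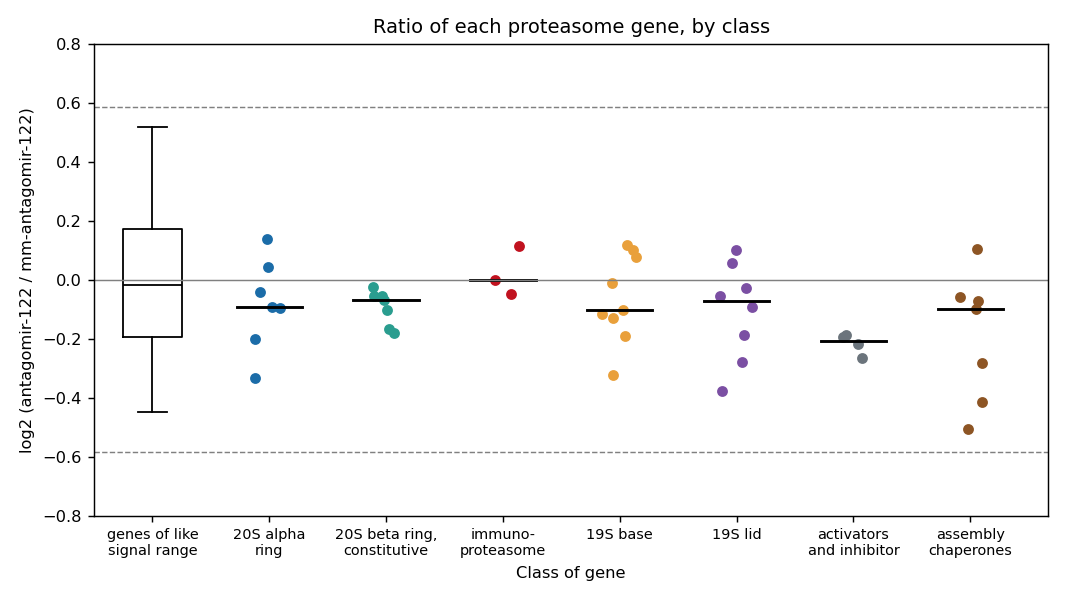
Log2 ratio of antagomir-122 over control (vertical) for each proteasome gene (points) by class, with the class median as a black bar, beside a box of the 6433 genes in the same signal range (box: quartiles, line: median, whiskers: 5th to 95th percentile). Every point lies between the dashed lines at 1.5-fold, the immunoproteasome median is -0.0020, and the other class medians lie between -0.21 and -0.068 as deposited.

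In the 19S base the ratios straddled 0, with 3 genes above and 6 below and a median of -0.10 over 9 genes. Psmc6, an ATPase of the unfolding ring, was lowest at 2659 and 3326.5 (-0.32), and its second probe set gave -0.30. Among the other ATPases, Psmc1 had 1992.5 and 2276 (-0.19) and Psmc4 had 2030.4 and 2200.3 (-0.12). A second probe set of Psmc4 gave -0.59, at 1157 and 1738, the other of the 2 past 1.5-fold. Psmc3 had a ratio of -0.012, with signals of 3253 and 3279. Psmc5 had 3115 and 2951.5 (0.078), and Psmc2 4042.5 and 3723 (0.12), though another probe set of Psmc2 gave -0.17. The scaffold subunit Psmd2, which docks ubiquitin shuttles, had 3630.3 and 3385.5 (0.10), and the other large scaffold, Psmd1, had 2397.5 and 2626 (-0.13). Psmd4, a ubiquitin receptor, had 2695 and 2890.5 (-0.10) and -0.37 on its second probe set.

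The 19S lid had a median of -0.073 over 8 genes, 2 above 0 and 6 below. Psmd6, a structural subunit, was lowest at 2906 and 3777 (-0.38), 1.30-fold lower, with -0.25 on its second probe set. Psmd7, the partner of the lid's deubiquitinase, had 1011 and 1225 (-0.28), and the deubiquitinase Psmd14 itself had 2486 and 2830.3 (-0.19). Psmd8, Psmd13 and Psmd12 had -0.091, -0.055 and -0.028, at signals of 3797 and 4044, of 1139.7 and 1184 and of 2793 and 2847. Psmd3 had 1684 and 1619 (0.056). Psmd11, which clamps the lid to the core, was highest at 7165 and 6675 (0.10), and its 4 probe sets above the floor ran from -0.29 to 0.14. The medians of core, base and lid were -0.079 for the 14 constitutive core genes, -0.10 for the base and -0.073 for the lid.

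Alternative caps and the inhibitor leaned the same way. All 4 measured genes were below 0 as deposited, with quantile normalization and with loess correction, and above 0 when scaled on the hybridization controls (median 0.067). The median as deposited was -0.21, in a narrow range from -0.27 to -0.19. Psme1, a subunit of the interferon-inducible PA28 activator, had 5387 and 6166 (-0.19). Its partner Psme2 was not analysed here, because its probe set names several genes. Psme3, which forms the nuclear activator, had 817 and 951 (-0.22), and its second probe set gave -0.17. Psme4, a nuclear activator needed in sperm development, had 2681 and 3052 (-0.19), with -0.20 and -0.29 on its other probe sets above the floor. Psmf1, a proteasome-binding protein first described as an inhibitor, had 929.8 and 1117 (-0.27), with -0.34 and -0.15 on the others. In Psme3, Psme4 and Psmf1 every probe set above the floor lay below 0 as deposited.

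Assembly chaperones spread most widely, with an SD of 0.22 over 7 genes and a median of -0.098. Psmg4, which helps build the alpha ring, had the lowest ratio of all 45 genes, -0.50, at signals of 831 and 1179, and was 1.42-fold lower on 1 probe set above the floor. Its partner Psmg3 had 688 and 835.5 (-0.28). The other pair of core chaperones had 1828 and 1956 for Psmg1 (-0.098) and 972 and 903.5 for Psmg2 (0.10), and a second probe set of Psmg2 gave -0.19. Of the base chaperones, Psmd9 had 1067 and 1423 (-0.42), but its dimmer probe set, at 259 and 232, gave 0.16. Psmd5 and Psmd10, the latter also called gankyrin, had -0.059 and -0.071, at signals of 1476 and 1538 and of 505 and 531.

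Of the 45 genes, 19 had several probe sets above the floor. In 10 of them every such probe set lay below 0, in 0 every one lay above 0, and in 9 the probe sets disagreed in sign: Psma5, Psma6, Psma7, Psmb1, Psmc2, Psmd9, Psmd11, Psmd13 and Psmg2. The same counts were not made over all genes with several probe sets, so whether they are particular to the proteasome genes was not tested. The brightest 2001 genes as a whole had a median of -0.058. On the second probe set the median was -0.17 for the 19 proteasome genes and -0.021 for the 3860 genes that had one. Those 3860 genes were not matched in brightness. The spread between the brightest and second probe sets was 0.19 among these 19 genes. The 4 probe sets of Psmd13 ran from -0.25 to 0.035.

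**Figure D4:**
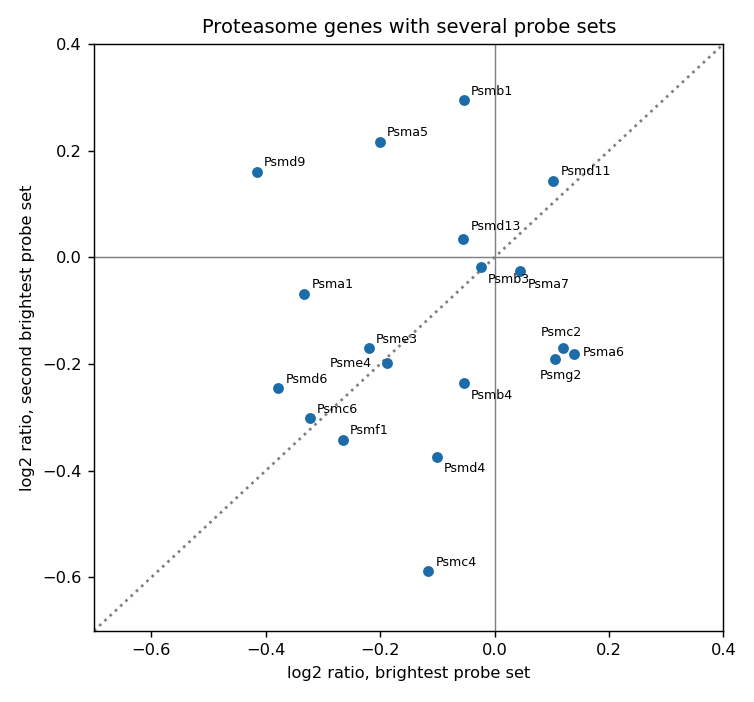
Log2 ratio of antagomir-122 over control on the brightest probe set (horizontal) against the second brightest (vertical) for the 19 proteasome genes that have both above the floor, 1 point per gene, with a dotted line of equality. Both values are below 0 for 10 genes, both are above 0 for 1 (Psmd11), and the signs are opposite for 8.

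Partners of the proteasome without a Psm symbol showed a similar range, apart from Zfand2a. Of 22 listed names 17 were above the floor, with a median of -0.11. On the brightest probe sets 1 was past 1.5-fold higher and 0 lower, where 5.12% and 2.62% of all genes above the floor were. Zfand2a, an arsenite-inducible protein that binds the 19S particle, had signals of 572 and 336.5 and was 1.70-fold higher (0.77), and its second probe set gave 0.48. Its relative Zfand5 had 3306 and 4092 (-0.31). The other probe sets of Zfand5 above the floor ran from -0.87 to -0.21. Dimmer ones passed 1.5-fold lower, at 278.5 and 509 (-0.87) and at 190 and 308 (-0.70). Ufd1, a cofactor of the unfoldase Vcp, had 901 and 1149 (-0.35). Pomp, which matures the core, had 3915 and 4352 (-0.15), and Sem1, the smallest lid subunit, had 3270.1 and 3920.3 (-0.26). The proteasome-bound deubiquitinases Usp14 and Uchl5 had -0.17 and -0.11. The other probe sets of Usp14 above the floor gave -0.32, 0.42 and 0.11, so that gene had no settled direction. Among ubiquitin and its E1 enzymes, 1 of 6 listed genes was measured above the floor: Uba6, an E1 for ubiquitin and FAT10, had 598 and 396 and was 1.51-fold higher (0.59), with 0.59 and 0.52 on its other probe sets above the floor. With quantile normalization and loess correction the ratio of Uba6 was 0.54 and 0.55, under 1.5-fold.

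Of 10 listed regulators of proteasome genes, 9 were above the floor, with a median of 0.093. At least 1.5-fold higher was 1 of the 9, against 5.12% of all genes above the floor. Nfe2l1, which encodes the membrane-bound factor that raises proteasome genes when proteasome activity falls short, had signals of 2237.5 and 1208 and was 1.85-fold higher (0.89) on its 1 probe set. It lay between 0.86 and 1.16 under the 9 alternatives that gave it a value. Its only probe set is a suffixed one, so leaving out suffixed probe sets and using the second probe set gave none, nor did restricting to the brightest 2001 genes. Its relative Nfe2l2 had 4004 and 3755 (0.093). Foxo3, another reported regulator, had 1287 and 972.5 (0.40), and Nfya, a subunit of NF-Y, had 573 and 485 (0.24). The 6 proteasome genes with the response element letters had a median ratio of -0.14, and the 32 without the letters had -0.091. The activity of Nfe2l1 is known to be controlled largely after translation, and it was not measured here.

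One pair of neighbours in the immunoproteasome locus gave a contrast, and the pair was chosen after the values were seen. In the RefSeq annotation Psmb9, Tap1, Psmb8 and Tap2 are consecutive protein-coding genes of the MHC region. Tap1 had signals of 1051 and 717 and was 1.47-fold higher (0.55), while Psmb9, across the printed region of 225 bases, had 1134 and 1136 (-0.0020). The difference between them was 0.55, where the SD of a difference between a pair of probe sets of the same gene was 0.39. Psmb8 had 0.11 and Tap2 had 0.22 (490.3 and 421). Tap1 rested on 1 probe set above the floor, as did the other 3 genes. On the other side of Psmb9, H2-DMa had 549 and 400.5 (0.455) and H2-DMb2 had 258.5 and 239.5 (0.11). The 12 genes of MHC class I presentation had a median of 0.0047, with 0 past 1.5-fold, where 7.74% of all genes above the floor were. The chaperone gene Pdia3 had 6320 and 8356 (-0.40), with 0.49 on another probe set, and Tapbpl had 429.8 and 542 (-0.34).

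Leukocyte markers differed between the pools while the immunoproteasome genes were nearly level. All 9 leukocyte and lymphocyte markers above the floor, of 13 listed, had ratios above 0 as deposited, and 8 did with quantile normalization and loess correction. Their median was 0.51, with 4 past 1.5-fold higher, where 5.12% of all genes above the floor were. Their summed signal was 13212 in the antagomir-122 pool and 9577 in the control pool. Ighm, the heavy chain of IgM, had 2784.5 and 1309 (1.09), Nkg7 had 591 and 369 (0.68) and Ms4a1 had 383 and 241 (0.67). The other probe sets of Ighm above the floor gave 0.27, 0.42 and 0.079, all under 1.5-fold. All 12 macrophage and Kupffer cell markers lay above 0 under these scalings, with a median of 0.40 and 2 past 1.5-fold, and their summed signals were 73842 and 55902. C1qc had 11134 and 6903 (0.69), Adgre1 2972 and 1957 (0.60) and Cd68 3232 and 2293 (0.50). Of 6 neutrophil markers above the floor, 5 were past 1.5-fold higher and 1 lay below 0, Elane at 261 and 323 (-0.31), with a median of 1.30 over the 6 and summed signals of 8013 and 2451, led by S100a8 (2.22), S100a9 (2.14) and Ngp (1.32). None of these markers above the floor was at 0 on either array. The part of these cells in the ratios of Psmb8, Psmb9 and Psmb10 was not tested, and in RNA from whole liver a change in the number of cells of a type and in RNA per cell cannot be told apart.

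**Figure D5:**
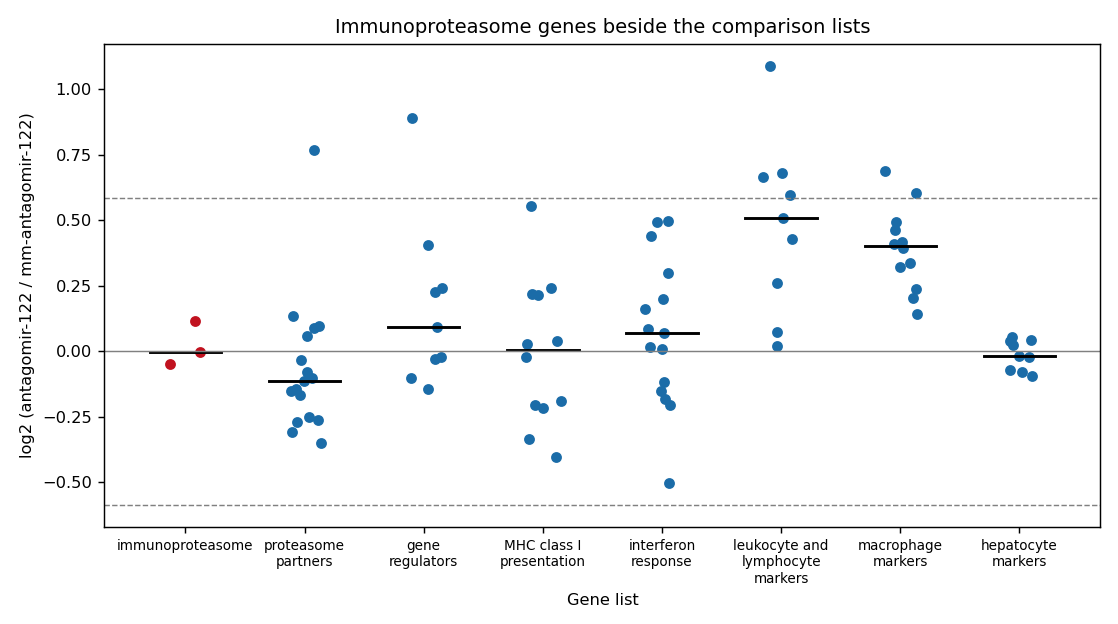
Log2 ratio of antagomir-122 over control (vertical) for the immunoproteasome genes (red) and for genes of 7 comparison lists (blue), 1 point per gene above the floor, with the list median as a black bar and dashed lines at 1.5-fold. The immunoproteasome median is -0.0020, and the leukocyte and macrophage marker medians are 0.51 and 0.40.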

How the data were processed

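Liver RNA was measured on 2 single-colour arrays. The deposited values were linear intensities from MAS5, which the submitters' processing notes name with no version, and no detection calls were used here. A dim value therefore cannot be told from background. Depth has no meaning for arrays, and having 1 array per group limits the precision. Gene names came from the platform annotation, which can be old, checked by gene identifier against RefSeq (GRCm38.p6). Of 45101 probe sets 64 were controls, 34945 had 1 gene (34741 matched), 932 several and 9160 none.

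Log2 ratios were computed with Python 3.11.15, pandas 2.3.3 and statsmodels 0.14.6, with no pseudocount. The floor was the 60th percentile of mean log2 signal, and a gene took its brightest probe set. Sizes are described by 1.5-fold, with no test. Calculations were tested on simulated data. The members, lists and rules were chosen with earlier results of these data known, and lists came from general knowledge. Signals are printed for catalytic and inducible subunits, caps, and the 3 highest and lowest ratios per class, and up to 3 genes per comparison list with the largest ratios; further genes were named after their values were seen. Also chosen after the values were seen were the motifs searched in promoter windows, the contrasts of Psmb9 with Tap1 and of Nfe2l1 with the genes holding response element letters, the background of genes in the same signal range, and the count within 1.1-fold. Alternatives were median centring, quantile normalization, loess (span 0.3), scaling on hybridization controls, floors at the 40th and 80th percentiles or none, a pseudocount of 50, the second probe set, averaging a gene's probe sets, leaving out suffixed probe sets, and thresholds at log2 ratios of 0.32 and 1. Restricting to the brightest 2001 genes was added after seeing the data.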

Additional observations from a re-analysis of the deposited data

How the results depend on the processing

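Of 162 comparisons of a class median, a pair difference or a count with its value under an alternative, 142 stayed within the probe-set spread divided by the square root of the number of genes (for counts, within 1.5 times), and 20 moved further. Scaling on the hybridization controls turned all 8 medians, which were below 0 as deposited, above it, to 0.18 for all proteasome genes, 0.18 for the alpha ring, 0.21 for the constitutive beta ring, 0.27 for the immunoproteasome, 0.17 for the base, 0.20 for the lid, 0.067 for activators and inhibitor and 0.18 for chaperones, and left 7 genes below 0. It moved the median of all genes to 0.28, so the order relative to them was kept by construction. With quantile normalization and loess correction the median of all proteasome genes was -0.043 and -0.041. On the second probe set it was -0.17 over 19 genes, the base was at -0.34 over 4 genes, 14 of the 19 genes were below 0, and 1 (Psmc4) was at least 1.5-fold lower. Without suffixed probe sets the chaperone median was -0.24 over 6 genes. With a floor at the 40th percentile, and with no floor, 1 gene was at least 1.5-fold higher, namely Psma8 at signals of 154 and 80.6, both under the floor of 238. At a log2 threshold of 0.32, 5 genes were lower, and in the brightest 2001 genes 22 of 28 were below 0, where fewer genes were counted. No paired analysis was possible because each group had 1 array. Without replicate arrays, ratios of this size could not be tested against the spread between animals.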

Other observations

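Interferon-response genes, which share regulators with the inducible subunits, had a median log2 ratio of 0.070 over 15 of 20 listed genes above the floor. Of these, 10 lay above 0 and 5 below, with 0 past 1.5-fold, where 7.74% of all genes above the floor were. Irf9, part of the interferon-stimulated transcription complex, had signals of 487.5 and 691.5 (-0.50). Oas2 and Ifit1, both antiviral effectors, had 390.4 and 277 (0.50) and 382 and 272 (0.49). Irf1, a factor known to act at the Psmb9 and Tap1 promoters, had 1827 and 1741 (0.070).

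Letters of interferon-linked sites were also searched, on both strands. TTCNNNGAA, of the gamma-activated site, lay in the promoter windows of 3 of the 38 proteasome genes (7.89%), Psmb8, Psmd2 and Psmg1, against 8.10% of genes above the floor. GAAANNGAAA, of the interferon-stimulated response element, lay in those of 5 (13.2%), Psmb3, Psmd4, Psmd9, Psme1 and Psmg4, against 3.81%. The 5 genes had a median log2 ratio of -0.19, and the other 33 had -0.091.

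Of the genes outside the classes, Psme3ip1 had signals of 751 and 757 (-0.011). Under the floor, Psmb11 had signals of 149 and 178 and Psmc3ip had 70.3 and 88.4, on the brightest probe set of each. Housekeeping genes had a median of 0.028 over 11 genes, and of these Polr2a was furthest from 0, at 2503 and 1703 (0.56), ahead of Pgk1 (-0.092) and Tbp (-0.076).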
